A study of Mus musculus with 20 samples.

Results

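The comparison described here set the changes of light against the middle of each phase in IgA+ plasma cells (PCs) of the mouse small intestine. Zeitgeber time (ZT) counts the hours since the lights came on, so that ZT0 is lights on, ZT12 is lights off, ZT6 is the middle of the light phase and ZT18 the middle of the dark phase. The light transitions were ZT0, with 5 libraries, and ZT12, with 5 libraries. The mid-phases were ZT6, with 5 libraries, and ZT18, with 5 libraries, so that 10 transition libraries were set against 10 mid-phase libraries and all 20 libraries of the series entered. The genes described are those that differed between both sides and whose mean at ZT0 and mean at ZT12 both lay above, or both lay below, the means at ZT6 and at ZT18. These were 1175 of the 13967 genes tested.

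The study sorted CD138+ IgA+ cells, the surface markers of intestinal plasma cells, and sequenced their poly-A RNA in bulk over a day. All groups were wild-type C57BL/6 animals with no treatment listed, and each library came from 1 animal. The labels give neither age nor sex. The cells were freed by shaking off the epithelium with a chelator and digesting the remaining tissue with collagenase and DNase before the sort. The methods also describe light-tight cabinets on opposite light cycles for some experiments, without saying whether these animals were kept in them. In such cabinets ZT0 and ZT12 animals, or ZT6 and ZT18 animals, can be collected at 1 clock hour. A handling session shared by both transitions, or by both mid-phases, cannot be told apart from the light transition itself in this design.

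Plasma cells are end-stage B lineage cells that spend most of their transcription on antibody, and those of the intestine make the IgA that is carried into the lumen. Immediate early genes are transcribed within minutes of a stimulus, without new protein synthesis, and encode factors such as FOS and JUN that pair to form AP-1, together with phosphatases and RNA decay factors that end the response. Growth factors, antigen receptor signals, glucocorticoids and cell stress induce many of them, and so can the warming and digestion of tissue during cell isolation. The clock of each cell, feeding and the daily rise of glucocorticoids before the active phase also impose daily changes on transcription.

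The libraries held 35570619 to 68018407 counts at the transitions and 35642341 to 49431875 counts at the mid-phases. Immunoglobulin genes took 52.7 to 62.3% of them at the transitions and 56.2 to 59.2% at the mid-phases. Both sides overlapped in each of 4 library properties (total counts, immunoglobulin share, scaling factor and genes detected), with adjusted p of 0.893 to 0.99 in a permutation test (two-sided, 100000 resamples). The share of mitochondrial transcripts among counts outside the immunoglobulin genes, which can reflect RNA quality, was 1.79 ± 0.15% at the transitions and 1.97 ± 0.15% at the mid-phases (SD, n = 10 each), with overlap. It differed in the same permutation test, added after its values were seen (p = 0.0161, adjusted over 6 properties 0.0484), and its part in the results was not tested. The defining plasma cell markers were high throughout and all 8 were measured. Sdc1, which encodes CD138, averaged 791 ± 61.6 and 732 ± 18.5 CPM at ZT0 and ZT12, against 775 ± 51.7 and 760.2 ± 35.6 CPM at ZT6 and ZT18 (SD, n = 5 each). CPM are counts per 1000000 counts of a library, and were scaled here between libraries by trimmed mean of M values (TMM) factors. Markers of other cells were low. Their summed levels overlapped between the sides, at 51.5 to 81.6 against 54.6 to 89.0 CPM for 12 tested enterocyte genes, 5.76 to 30.9 against 2.83 to 79.6 CPM for 15 Paneth and goblet cell genes, 133.9 to 158.8 against 141.9 to 166.3 CPM for 9 B cell genes and 36.9 to 43.3 against 28.5 to 40.6 CPM for 10 T cell genes. None of the tested B cell, T cell, enterocyte or Paneth and goblet markers was called by edgeR. At an unadjusted p under 0.05 stood 3 of 9, 2 of 10, 1 of 12 and 0 of 15 of them, and DESeq2 called 1 B cell gene. For 14 macrophage and dendritic cell genes, the median sum was 119.7 CPM (97.3 to 129) at the transitions and 96.3 CPM (86.3 to 127.5) at the mid-phases, with C1qa and C1qc called higher, each by 0.33 on the log2 scale, C1qc not in 10 of 20 fits that left out 1 library (edgeR adjusted p up to 0.0144) nor with library totals (0.0351). Of 15 granulocyte and mast cell markers 3 were tested, with a median sum of 98.7 CPM (74.8 to 123.9) at the transitions and 75.8 CPM (68.7 to 90.4) at the mid-phases. Prg2, an eosinophil granule gene, was called higher in it, by 0.36 ± 0.08, while Elane, Cpa3 and Fcer1a had no counts. The 8 stromal and endothelial genes summed to a median of 31.0 CPM (28.3 to 40.4) at the transitions and 38.0 CPM (30.9 to 40.1) at the mid-phases, and Pecam1, which encodes CD31, was called lower at -0.31 ± 0.05. The part of these cells in the results below was not tested. Fewer cells of a type and less RNA per cell cannot be told apart in bulk libraries.

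At an adjusted p under 0.01, 1320 of 13967 genes (9.45%) differed between transitions and mid-phases. Of all genes tested, 606 (4.34%) were called higher at the transitions and 714 (5.11%) lower. The test was edgeR's quasi-likelihood test on the counts with Benjamini-Hochberg adjustment over all genes, and this threshold defines a called gene in what follows. Of the called genes, 518 were also separated, with both transition means above both mid-phase means (3.71% of genes tested), and 657 were separated in the other direction (4.7%). The other 145 called genes had at least 1 transition mean between, or beyond, the mid-phase means. Separation alone was common, since 5086 genes showed it with or without a call. The changes were small, with a median of 1.21-fold among the called and separated genes, of which 103 reached 1.5-fold and 20 reached 2-fold.

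In 43 genes (0.308%) all 10 transition libraries lay above all 10 mid-phase libraries, and in 49 genes (0.351%) all lay below. Each transition time was also set against each mid-phase time. ZT0 differed from ZT6 in 8.77% of genes and from ZT18 in 7.57%, and ZT12 differed from ZT6 in 4.57% and from ZT18 in 9.94%. The times on 1 side were not alike either, since ZT12 differed from ZT0 in 3.86% of genes and ZT18 from ZT6 in 8.24%. Of the called and separated genes, 92 were called in all 4 differences between a transition and a mid-phase time. At the edge of the rule, Pfkl averaged 34.1 and 32.92 CPM at ZT0 and ZT12 against 24.5 and 32.90 CPM at ZT6 and ZT18 and was counted as separated. Ryr1, with 29.0 and 26.44 CPM against 26.47 and 20.5 CPM, was not.

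Scaling decided part of the balance between directions. With library totals in place of TMM, 253 genes were called higher and 557 lower, against 606 and 714 with TMM. The summed level of 26 immediate early genes also split the sides, at 7978 to 11910 CPM (median 9386) in the transition libraries and 5054 to 7500 CPM (median 6556) in the mid-phase libraries, with no overlap. When this sum was added to the fit, 1 gene was called, Golga4, with 0.48 on the log2 scale (edgeR adjusted p = 0.000765), and 1340 genes had an unadjusted p under 0.05. Since the sum itself separates the sides, it carries much of the same split as the comparison, and this fit does not tell them apart. Why the calls were lost with it was not tested.

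**Figure D1:**
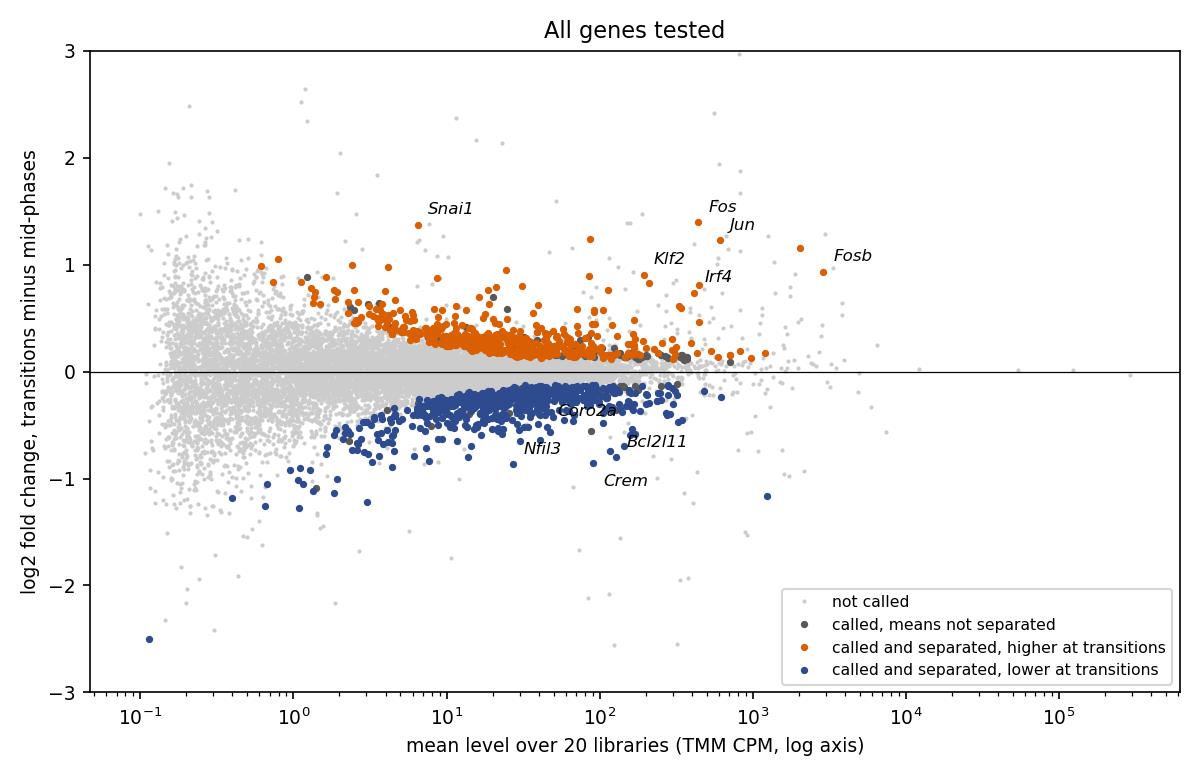
Log2 difference between light transitions and mid-phases (vertical axis) against mean TMM-scaled CPM (horizontal axis, log scale) for the genes tested, with 518 called and separated higher genes in orange, 657 called and separated lower genes in blue, other called genes in dark grey and the rest in light grey. Most called genes lie close to 0, and 11 genes beyond 3 on the log2 scale are not drawn. Among called and separated genes with at least 5 CPM, antibody segments left out, Fos, Jun, Fosb and Egr1 stand near the top.

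Immediate early genes held 5 of the 12 highest differences among called and separated genes with at least 5 CPM, antibody segments left out. Of 26 measured, 12 rose at the transitions and 0 fell, where 4.34% of all genes were called higher, and all 12 were separated. The median over the 26 genes was 0.37 on the log2 scale, against 0.006 over all genes tested. With library totals 10 of them were called higher and 1 lower, and with the GC offset described below 10 and 0. Fos, the AP-1 subunit (ENSMUSG00000021250, chromosome 12, plus strand), had 380.3, 823.5, 1031, 738 and 507.8 CPM in the ZT0 libraries and 525.7, 484.2, 559.2, 859.1 and 448.1 CPM in the ZT12 libraries. It had 248.6, 446, 192.8, 252.6 and 203.6 CPM in the ZT6 libraries and 165.2, 263.3, 243.4, 222.6 and 183 CPM in the ZT18 libraries. The 1 mid-phase library that reached into the transition range was replicate 2 of ZT6. The difference was 1.40 ± 0.20 on the log2 scale (SE), 2.63-fold, with an edgeR adjusted p of 0.000142.

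Jun, the partner of FOS in AP-1, had 680.3, 1233, 1195, 901.8 and 562.7 CPM at ZT0 and 612.5, 578, 789.7, 1115 and 827.2 CPM at ZT12. At ZT6 it had 215.7, 498.4, 257.1, 384.4 and 225.8 CPM, and at ZT18 424.5, 512.9, 355.2, 405.9 and 372.8 CPM. Every transition library lay above every mid-phase library, and the difference was 1.23 ± 0.19 on the log2 scale (edgeR adjusted p = 0.000291). Fosb, another FOS family subunit, had 2728 to 4976 CPM at the transitions and 1268 to 2564 CPM at the mid-phases, also with no overlap, and a difference of 0.93 ± 0.13. Junb averaged 318 ± 90.8 and 225 ± 39.7 CPM at ZT0 and ZT12, against 147.5 ± 21.1 and 153.9 ± 11.9 CPM at ZT6 and ZT18 (SD, n = 5 each). Its rise was 0.83 ± 0.12 with all 20 libraries, and with ZT12 as the only transition it missed the threshold (edgeR adjusted p = 0.0132).

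The same libraries stood high in several of these genes. At ZT12, replicate 4 had the highest value for Fos, Jun, Fosb, Junb and Egr1. At ZT0, replicates 1 and 5 had the lowest values for each of these 5 genes. At ZT6, replicate 2 was highest for all 5. Egr1, a zinc finger factor that follows MAP kinase signalling, averaged 131.5 ± 57.6 and 111.4 ± 39.8 CPM at ZT0 and ZT12, against 56.9 ± 43.9 and 45.9 ± 8.29 CPM at ZT6 and ZT18 (SD, n = 5 each). Its difference of 1.24 ± 0.30 lost its call in 17 of 20 fits that left out 1 library, with edgeR adjusted p of 0.000505 to 0.0198, and with library totals (0.0164).

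The other immediate early genes that rose fall into factors and feedback regulators. Among the factors, Klf4 rose by 0.79 ± 0.14, Maff by 0.76 ± 0.09 and Klf6 by 0.62 ± 0.08 on the log2 scale. Klf6, a Krüppel-like factor, had 320 to 507 CPM in the transition libraries and 227 to 312.5 CPM in the mid-phase libraries, with no overlap. Among the feedback regulators, Dusp1, a MAP kinase phosphatase, rose by 0.57 ± 0.13, and Zfp36, which speeds the decay of AU-rich transcripts, by 0.30 ± 0.07. Dusp1 lost the call without replicate 3 of ZT0 or without replicate 4 of ZT6, where the highest adjusted p was 0.0102, and with ZT12 as the only transition (adjusted p = 0.0981). Zfp36 lost it in 15 of 20 fits without 1 library (adjusted p up to 0.0158) and with library totals (0.0116). Rgs1, which limits signalling of G protein-coupled receptors, rose by 0.49 ± 0.08 and Ier2 by 0.56 ± 0.10. Klf4, Ier2 and Zfp36 missed the threshold with ZT12 as the only transition (edgeR adjusted p = 0.0106, 0.0133 and 0.0366). Zfp36 also missed it with ZT0 as the only transition (0.0189). Outside the list, Dusp6, the phosphatase that acts on ERK, rose by 0.87 ± 0.10, with 8.10 to 15.4 CPM at the transitions and 4.54 to 6.98 CPM at the mid-phases. The small GTPases Rhob and Gem rose by 0.81 ± 0.10 and 0.80 ± 0.12.

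Other members of the list were not called. Nr4a1, the nuclear receptor that reports antigen receptor signals in B cells, averaged 111.1 ± 25.0 and 97.9 ± 17.4 CPM at ZT0 and ZT12, against 113.9 ± 16.0 and 107.9 ± 26.2 CPM at ZT6 and ZT18 (SD, n = 5 each), a difference of -0.09 ± 0.13. Nr4a2 and Nr4a3 had differences of -0.16 and -0.08, Atf3 of 0.16 and Btg2 of -0.05. Egr2 stood at 0.63 with an edgeR adjusted p of 0.0197, and Myc at -0.39 with 0.035. Of the AP-1 subunits, Jund stood at 0.23 with an edgeR adjusted p of 0.0354, and Fosl2 at 0.04. The list thus held both members that rose at the transitions and members, such as the 3 NR4A receptors, that were not called.

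**Figure D2:**
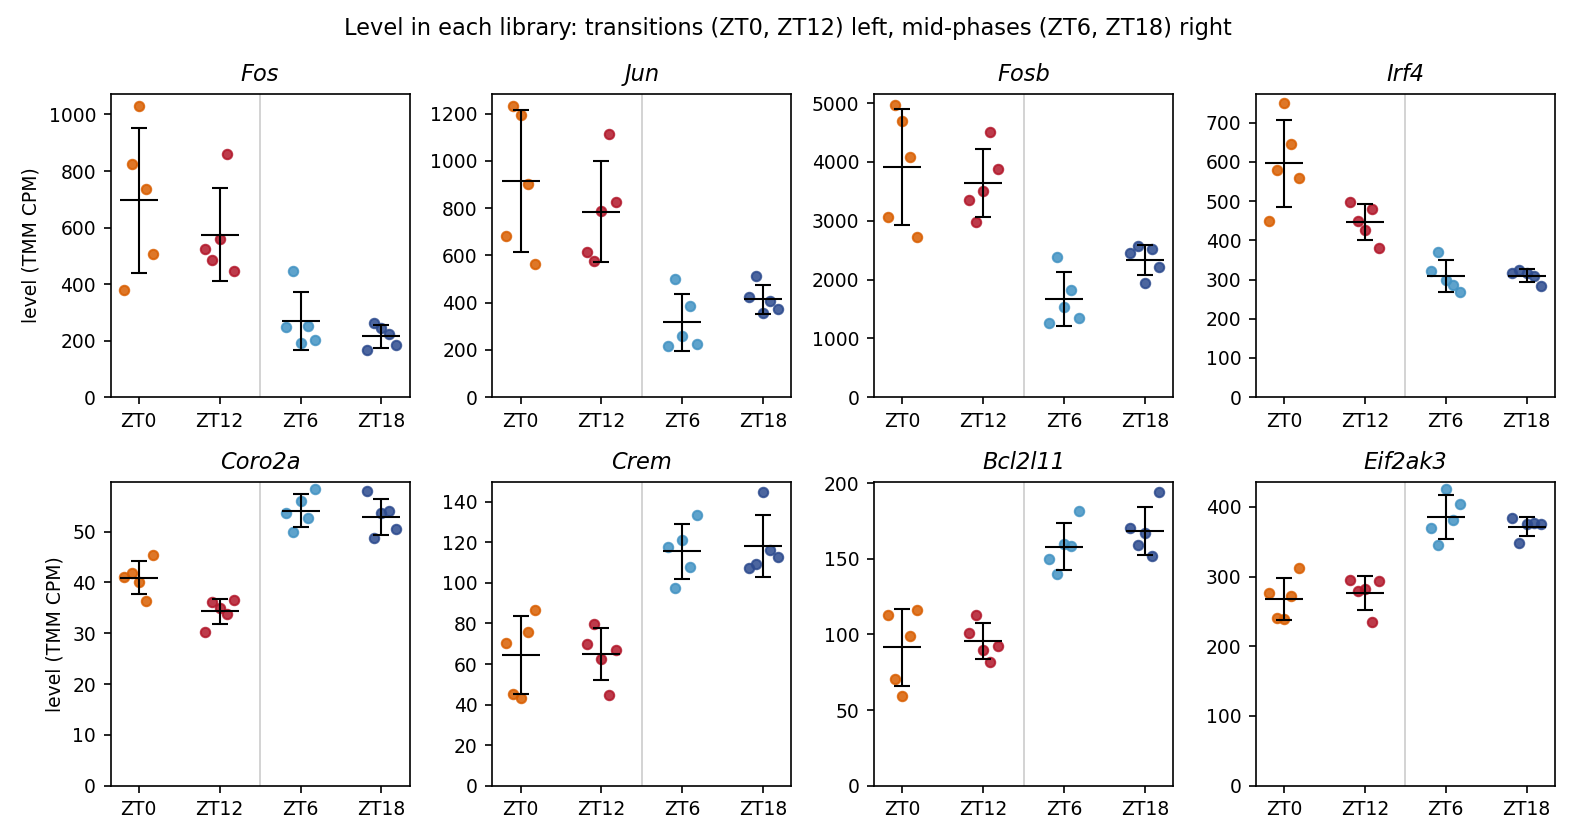
TMM-scaled CPM (vertical axis) of Fos, Jun, Fosb, Irf4, Coro2a, Crem, Bcl2l11 and Eif2ak3 in each library, with ZT0 and ZT12 left of ZT6 and ZT18, points for libraries and bars for the mean ± SD of 5. Fos, Jun, Fosb and Irf4 are higher at both transition times, with 1 ZT6 library of Fos at 446 CPM inside the transition range, and Coro2a, Crem, Bcl2l11 and Eif2ak3 are lower at both, with no overlap.

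The promoters of Fos and Dusp1 are shown because both genes rose and both windows hold a form of the cAMP response element, through which CREB acts on immediate early genes. Each window is the 250 bases before the RefSeq start in GRCm38.p6, written from 5′ to 3′ on the strand of the gene. Capitals mark the core TGACG in Fos, at chr12:85473640-85473889 on the plus strand, and the full palindrome TGACGTCA, which contains the core, in Dusp1, at chr17:26508473-26508722 on the minus strand.
Fos: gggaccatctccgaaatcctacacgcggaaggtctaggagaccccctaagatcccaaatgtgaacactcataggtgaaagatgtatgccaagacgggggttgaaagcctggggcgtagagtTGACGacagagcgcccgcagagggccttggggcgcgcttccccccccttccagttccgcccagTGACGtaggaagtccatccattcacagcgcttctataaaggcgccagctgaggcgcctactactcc
Dusp1: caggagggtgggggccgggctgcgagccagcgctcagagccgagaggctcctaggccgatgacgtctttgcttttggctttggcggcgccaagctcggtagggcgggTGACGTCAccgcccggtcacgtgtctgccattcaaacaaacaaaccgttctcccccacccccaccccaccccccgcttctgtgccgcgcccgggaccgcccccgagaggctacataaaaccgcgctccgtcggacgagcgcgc
Searched on both strands, the core was in 17.8% and the palindrome in 1.55% of the 32851 promoter windows of the table. Both were more common in the 12665 windows found for tested genes, at 26.7% and 2.61%. A match in this window is a description of letters and was not tested as a binding site. Both windows were picked for their match, so they do not tie the element to the genes that rose. Shares among all called genes are not given, because 79.2% of the higher genes and 71.6% of all tested genes had a window, too few for such a check.

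Of 16 measured genes that glucocorticoids induce, 6 were called higher and 0 lower, where 4.34% of all genes were called higher and 5.11% lower. Of the 16, 10 had a positive difference, and 4 were called higher with library totals and with the GC offset. Dusp1 and Zfp36 are in this list and in the previous one. Tsc22d3, which encodes the glucocorticoid-induced leucine zipper GILZ, had 318.4, 401.5, 415.6, 396.4 and 334.7 CPM at ZT0 and 490.3, 440.9, 433.3, 454.1 and 421.8 CPM at ZT12. It had 310.1, 302.2, 288.8, 291.4 and 262.5 CPM at ZT6 and 228.7, 274.5, 243.2, 254.6 and 266.2 CPM at ZT18. Every transition library exceeded every mid-phase library, although ZT0 replicate 1 came close to ZT6 replicate 1. The rise was 0.59 ± 0.05 on the log2 scale (edgeR adjusted p = 2.53e-08), and all 4 differences between a transition and a mid-phase time were called.

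Per1, a clock repressor that glucocorticoids and cAMP also induce, averaged 196.6 ± 14.8 and 195.9 ± 16.0 CPM at ZT0 and ZT12, against 149.9 ± 19.5 and 130.9 ± 10.2 CPM at ZT6 and ZT18 (SD, n = 5 each). It was 0.49 ± 0.05 higher and called in all 4 differences. Fkbp5, the cochaperone that restrains the glucocorticoid receptor, was called but not separated. Its means were 12.0 and 40.9 CPM at ZT0 and ZT12, against 14.0 and 13.2 CPM at ZT6 and ZT18, so that ZT12 alone was high. Nr3c1, the receptor itself, was not called, with a difference of -0.02 ± 0.05. Sgk1 and Klf9 stood at -0.19 each and were not called.

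Irf4, the transcription factor that plasma cells require for their identity (ENSMUSG00000021356, chromosome 13), was the 1 member of the plasma cell identity list that rose and was separated. Its libraries held 448.7, 579.4, 750.3, 646.2 and 558 CPM at ZT0 and 497.7, 449.1, 426.8, 481.1 and 380.9 CPM at ZT12. They held 321, 371.3, 298.9, 284.8 and 267.6 CPM at ZT6 and 317.1, 325.4, 315.7, 309.7 and 283.1 CPM at ZT18. No libraries overlapped, and ZT0 was the highest time. The difference was 0.74 ± 0.08 on the log2 scale, 1.67-fold (edgeR adjusted p = 1.2e-05). The list had 2 of 19 genes called higher and 2 lower, where 4.34% and 5.11% of all genes were. The other 18 members included 1 more called higher gene, Bhlha15, which encodes MIST1, was not separated and lost its call with library totals (edgeR adjusted p = 0.046), and the lower genes Cd28 at -0.28 ± 0.05 and Tram2 at -0.18 ± 0.03. Xbp1, Prdm1 and Sdc1 were not called, at 0.04, -0.10 and -0.01. None of 12 antibody constant region and J chain genes was called by edgeR, with a median of 0.04, while 1 had an unadjusted p under 0.05 and DESeq2 called 1.

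Of 24 NF-kappaB subunits, inhibitors and targets, 5 were called higher and 0 lower, where 4.34% and 5.11% of all genes were, and 4 were separated higher, against 3.71% of all genes. With the GC offset 4 were called higher and 1 lower. The separated genes included the inhibitors Tnfaip3, which encodes A20, at 0.58 ± 0.09, and Nfkbia, which encodes IkB-alpha, at 0.43 ± 0.09. The others were Nfkbiz at 0.29 ± 0.08 and the activation marker Cd69 at 0.46 ± 0.05. Cd69 had 457 to 587 CPM at the transitions and 304.7 to 454 CPM at the mid-phases with no overlap, and all 4 of its differences were called. Nfkbia averaged 164 ± 32.8 and 115.6 ± 10.7 CPM at ZT0 and ZT12, against 101.9 ± 11.8 and 102.3 ± 9.45 CPM at ZT6 and ZT18 (SD, n = 5 each). Its call rested on ZT0, because ZT12 alone against the mid-phases gave an edgeR adjusted p of 0.314, and Tnfaip3 just missed the threshold in that fit (0.0113). Nfkbiz lost its call in 13 of 20 fits without 1 library (adjusted p up to 0.0217), with library totals (0.0587) and with ZT12 as the only transition (0.13). The subunits Rela, Nfkb1, Nfkb2, Rel and Relb were not called, with differences of -0.09 to 0.10. Icam1 was called but not separated, with 42.7 and 18.6 CPM at ZT0 and ZT12, against 14.9 and 23.7 CPM at ZT6 and ZT18.

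The promoter window of Nfkbia is shown with its NF-kappaB site in capitals, since this inhibitor is a classic target of the pathway. The window is chr12:55492648-55492897 of GRCm38.p6, from RefSeq, on the minus strand.
Nfkbia: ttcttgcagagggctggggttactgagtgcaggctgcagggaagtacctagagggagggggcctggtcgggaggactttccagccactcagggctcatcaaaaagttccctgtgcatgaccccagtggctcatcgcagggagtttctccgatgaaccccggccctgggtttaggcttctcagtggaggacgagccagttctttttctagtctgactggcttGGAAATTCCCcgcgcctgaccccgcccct
An NF-kappaB site, searched on both strands, was in 3.9% of all windows of the table.

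Among genes of antigen presentation, 10 of 20 tested in the MHC class I list and 2 of 11 in the class II list were called higher and 0 lower, where 4.34% of all genes were called higher. The counts were 3 of 20 and 1 of 11 with library totals, and 8 of 20 and 2 of 11 with the GC offset. In the main fit 8 class I and 2 class II genes were also separated higher, against 3.71% of all genes. H2-Q6 and H2-T23 were called without separation. H2-Q6 had an edgeR adjusted p of 0.999 with ZT12 as the only transition, and H2-T23 of 0.387 with ZT0 as the only transition. The called differences were small. The immunoproteasome subunits Psmb9, Psmb8 and Psmb10 rose by 0.32 ± 0.04, 0.23 ± 0.03 and 0.19 ± 0.04. The peptide transporter genes Tap1 and Tap2 rose by 0.20 ± 0.04 and 0.13 ± 0.04. B2m, the light chain of class I molecules, rose by 0.17 ± 0.04, and the heavy chains H2-K1 and H2-D1 by 0.16 ± 0.03 and 0.14 ± 0.03. Heavy chain genes are near copies of each other, so counts can be split between them. Psmb9 averaged 72.6 ± 3.47 and 63.6 ± 3.56 CPM at ZT0 and ZT12, against 58.3 ± 4.04 and 50.5 ± 2.70 CPM at ZT6 and ZT18 (SD, n = 5 each). For MHC class II, 11 of 11 tested genes had a positive difference, with a median of 0.22, but 2 were called, H2-Ab1 and H2-Aa. Psmb10, Tap1, Tap2, H2-K1, H2-D1, H2-Ab1 and H2-Aa missed the threshold when libraries were scaled by their totals (edgeR adjusted p = 0.02, 0.0172, 0.141, 0.0185, 0.0825, 0.0381 and 0.124). In 20 fits without 1 library, H2-Aa lost the call in 15 (adjusted p 0.00223 to 0.0251), Tap2 in 12 (up to 0.0179) and B2m in 11 (up to 0.0144). The same Psmb10, Tap1, Tap2, H2-K1, H2-D1, H2-Ab1 and H2-Aa missed the threshold with ZT12 as the only transition. Their edgeR adjusted p there were 0.205, 0.0814, 0.527, 0.187, 0.0419, 0.0115 and 0.0265. Psmb9, Psmb8 and B2m kept it (0.000739, 0.000529 and 0.00661). With ZT0 as the only transition B2m and H2-Aa missed it (0.0809 and 0.0608). Macrophage markers, whose cells also express class II, stood at the summed levels given above.

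Cytosolic ribosomal protein genes showed how a call can go without separation. Of 82 tested, 28 were called higher and 0 lower, where 4.34% and 5.11% of all genes were, 80 had a positive difference, and the median was 0.12. However, 3 were separated, a share near the 3.71% of all genes. Scaling decided these calls, since 0 of the 82 were called with library totals, where the median was 0.10, and 18 with the GC offset described below. Rplp1 averaged 320 ± 22.2 and 340.5 ± 14.6 CPM at ZT0 and ZT12, against 318 ± 9.67 and 274 ± 11.3 CPM at ZT6 and ZT18 (SD, n = 5 each). The low time of Rplp1 was ZT18, and ZT0 differed from ZT6 by 0.01 on the log2 scale (edgeR adjusted p = 0.933). The sum over the 82 genes averaged 14090 ± 763 and 16950 ± 344 CPM at ZT0 and ZT12. It averaged 15560 ± 454 and 13210 ± 526 CPM at ZT6 and ZT18 (SD, n = 5 each), so that ZT0 lay below ZT6. Rplp1, Rplp2 and Rps19, the separated members, all missed the threshold with library totals (adjusted p = 0.0352, 0.114 and 0.116), and Rplp2 and Rps19 lost the call in 13 and 5 of 20 fits without 1 library (up to 0.0191 and 0.0132). With ZT0 as the only transition Rplp1, Rplp2 and Rps19 also missed the threshold (edgeR adjusted p = 0.0416, 0.338 and 0.0168). Pseudogene copies of ribosomal protein genes can take part of their counts.

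**Figure D3:**
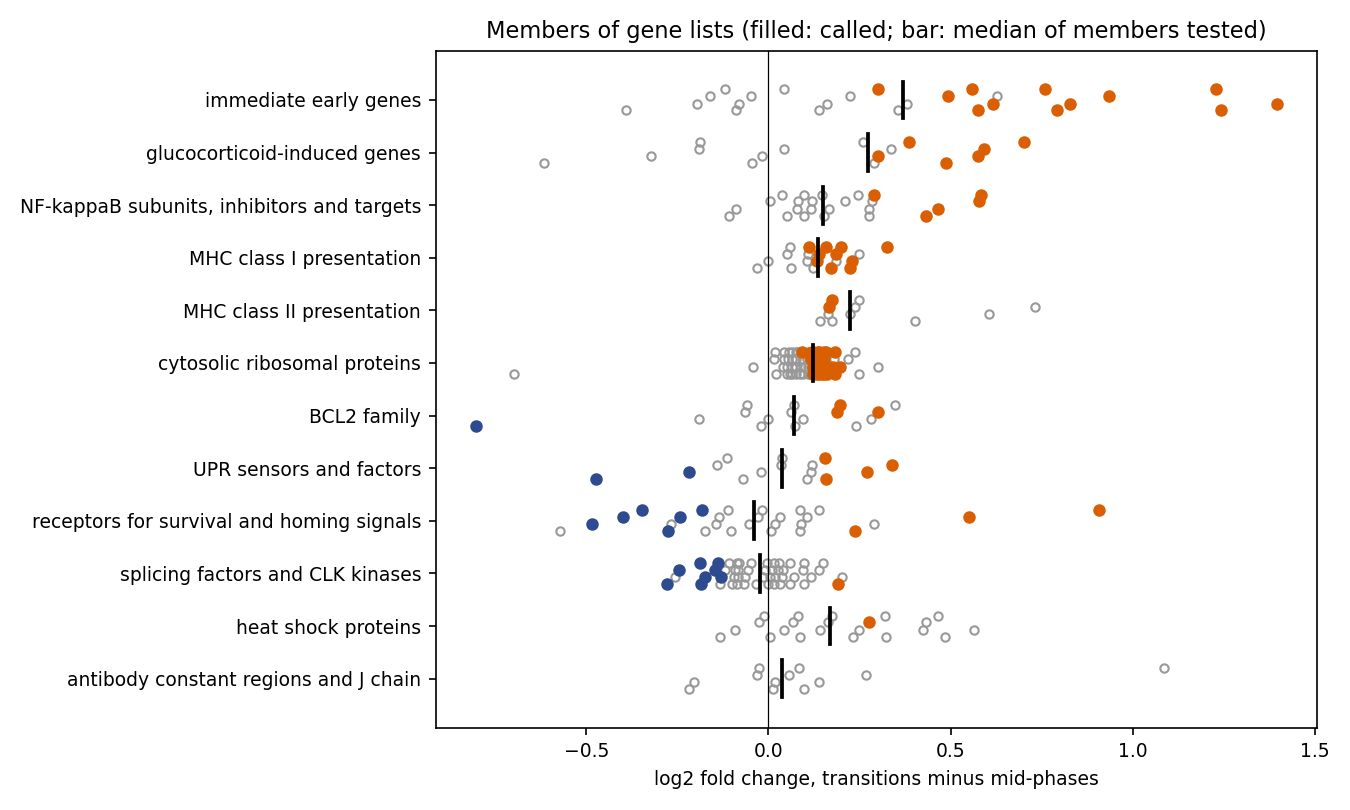
Log2 difference between light transitions and mid-phases (horizontal axis) of the tested members of 12 gene lists, with filled points for called genes, open points for the others and a bar for the list's median. The immediate early list reaches 1.40 and has called genes on the higher side alone, while Bcl2l11 at -0.80 stands apart from the other BCL2 family genes.

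Among the genes that fell, Coro2a had the smallest p of the whole comparison. Coro2a encodes an actin-binding coronin (ENSMUSG00000028337, chromosome 4). It had 41.1, 41.8, 40.02, 36.3 and 45.3 CPM at ZT0 and 30.19, 36.05, 34.9, 33.8 and 36.5 CPM at ZT12. It had 53.7, 49.8, 56, 52.7 and 58.3 CPM at ZT6 and 57.9, 48.8, 53.6, 54.0 and 50.5 CPM at ZT18. The sides did not overlap, and ZT12 lay below ZT0. The difference was -0.52 ± 0.04 on the log2 scale, 1.43-fold lower (edgeR adjusted p = 1.09e-09).

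Crem, which encodes activators and repressors of cAMP-responsive transcription including the inducible repressor ICER, had 70.4, 45.2, 43.2, 76.0 and 86.8 CPM at ZT0 and 70.02, 79.6, 62.3, 44.7 and 67.1 CPM at ZT12. It had 117.9, 97.7, 121.4, 107.9 and 133.3 CPM at ZT6 and 107.5, 109.4, 144.7, 116.4 and 112.8 CPM at ZT18. All mid-phase libraries lay above all transition libraries. The difference was -0.86 ± 0.13 on the log2 scale (edgeR adjusted p = 0.000281), and all 4 differences were called, between -0.88 and -0.84. Counts per gene do not tell the isoforms of Crem apart.

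Bcl2l11 encodes the pro-apoptotic BH3-only protein BIM. It had 112.6, 70.5, 59.1, 98.7 and 116.3 CPM at ZT0 and 101.2, 113, 89.5, 82.1 and 92.5 CPM at ZT12. It had 149.9, 140.1, 159.9, 158.6 and 181.9 CPM at ZT6 and 170.4, 158.9, 166.9, 151.7 and 194.1 CPM at ZT18. The sides did not overlap and all 4 differences were called. The difference was -0.80 ± 0.11, 1.74-fold lower (edgeR adjusted p = 9.72e-05). In the BCL2 family, 3 of 16 tested members were called higher and 1 lower, where 4.34% and 5.11% of all genes were. The survival genes Mcl1 and Bcl2 rose by 0.19 ± 0.03 and 0.20 ± 0.05, and Bbc3, which encodes the BH3-only protein PUMA, rose by 0.30 ± 0.05. Mcl1 averaged 595 ± 21.9 and 535 ± 22.3 CPM at ZT0 and ZT12, against 500.5 ± 14.6 and 490.2 ± 13.2 CPM at ZT6 and ZT18 (SD, n = 5 each). With ZT12 as the only transition, Mcl1, Bbc3 and Bcl2 missed the threshold (edgeR adjusted p = 0.0134, 0.0334 and 0.125). Bcl2 also lost its call in 9 of 20 fits without 1 library (up to 0.0139) and with library totals (0.0357). The effectors Bax and Bak1 were not called, at 0.00 and -0.02.

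The promoter window of Bcl2l11 is shown because this gene fell the most in its family, and it holds a CCAAT box, a common promoter element, on the opposite strand (ATTGG, in capitals). The window is chr2:128125788-128126037 of GRCm38.p6, from RefSeq, on the plus strand.
Bcl2l11: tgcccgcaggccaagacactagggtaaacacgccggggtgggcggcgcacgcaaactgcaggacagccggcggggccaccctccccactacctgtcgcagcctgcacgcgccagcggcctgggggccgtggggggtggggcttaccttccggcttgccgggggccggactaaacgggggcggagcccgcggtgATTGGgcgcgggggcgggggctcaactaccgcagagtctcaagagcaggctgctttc
The CCAAT box, searched on both strands, was in 33.8% of all windows of the table.

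Several lower genes shared the library order seen for the immediate early genes, with the opposite sense. At ZT12, replicate 4 was lowest for Crem, Bcl2l11, Eif2ak3, Ripor2 and Dennd4a. At ZT0, replicates 2 and 3 were lowest for Crem, Bcl2l11 and Eif2ak3, while replicate 5 was highest for the same 3 genes. Ripor2, an inhibitor of RHOA, fell by 0.74 ± 0.10 and Myo1e, a class I myosin, by 0.80 ± 0.11, both with no overlap between the sides. Cd44, the hyaluronan receptor, fell by 0.40 ± 0.04 to 243 ± 15.5 and 254 ± 20.4 CPM at ZT0 and ZT12, against 323 ± 19.8 and 332 ± 20.5 CPM at ZT6 and ZT18 (SD, n = 5 each). The transcription factor gene Sp3 fell by 0.39 ± 0.04 and the acyltransferase gene Agpat4 by 0.56 ± 0.05, also with no overlap. Satb1, a chromatin organizer, fell by 0.65 ± 0.09. Gm18561, annotated as a processed pseudogene, and Cdca4 and Exoc8 fell by 0.79 ± 0.15, 0.84 ± 0.10 and 0.71 ± 0.10.

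Eif2ak3 encodes PERK, the sensor kinase of the unfolded protein response that halts translation. It had 276.3, 240.5, 239.1, 272.1 and 311.9 CPM at ZT0 and 294.5, 278.7, 282.8, 235.3 and 294.1 CPM at ZT12. It had 369.6, 344.9, 426.3, 381.5 and 404.5 CPM at ZT6 and 383.8, 347.9, 375, 376.8 and 375.3 CPM at ZT18. No library overlapped, and the difference was -0.47 ± 0.05 (edgeR adjusted p = 7.59e-07). Of the 3 sensors of this response, Atf6 also fell, by 0.22 ± 0.05, and Ern1, which encodes IRE1, was not called at -0.11 ± 0.04 (adjusted p = 0.0303). Other members moved the other way. Creb3l2, a membrane-bound factor of the ATF6 type, rose by 0.27 ± 0.03 with no overlap, Ddit3, which encodes CHOP, by 0.34 ± 0.08, and Atf6b by 0.16 ± 0.04. Over the 15 members 4 were called higher and 2 lower, where 4.34% and 5.11% of all genes were, against 1 and 2 with library totals. Xbp1, Herpud1 and Edem1 were not called. Atf6b and Ddit3 missed the threshold with library totals (adjusted p = 0.0628 and 0.0192). Both also missed it with ZT0 as the only transition (edgeR adjusted p = 0.0474 and 0.0228). Atf6 missed it with ZT12 as the only transition (0.0255).

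Among 28 receptors and homing genes, 3 were called higher and 6 lower, where 4.34% and 5.11% of all genes were. Klf2, a factor that controls lymphocyte homing, rose by 0.91 ± 0.17, Tnfrsf13c, which encodes the BAFF receptor, by 0.24 ± 0.05, and Il10ra by 0.55 ± 0.15. Il10ra lost its call in 13 of 20 fits without 1 library (edgeR adjusted p up to 0.0213) and with library totals (0.0125). Klf2 averaged 249 ± 82.3 and 254 ± 64.5 CPM at ZT0 and ZT12, against 158.9 ± 31.3 and 113.2 ± 27.2 CPM at ZT6 and ZT18 (SD, n = 5 each). Ifnar1, a subunit of the type I interferon receptor, fell by 0.49 ± 0.05, Tgfbr1 by 0.35 ± 0.06, and S1pr4 by 0.24 ± 0.05. With ZT12 as the only transition Tgfbr1, Cd28, S1pr4 and Il10ra missed the threshold (edgeR adjusted p = 0.0116, 0.0337, 0.099 and 0.0169). Tnfrsf13c and Il10ra missed it with ZT0 as the only transition (0.0729 and 0.0581). Ifnar1 was lower at ZT12 than at ZT0, with 78.4 ± 7.51 and 97.8 ± 10.8 CPM at ZT12 and ZT0, against 118 ± 8.37 and 127.1 ± 7.48 CPM at ZT6 and ZT18 (SD, n = 5 each). Ccr9, the gut homing receptor, was called lower but not separated, because ZT6 alone was high, with 93.8 and 100.5 CPM at ZT0 and ZT12 against 128.3 and 94.5 CPM at ZT6 and ZT18. The survival receptors Tnfrsf17 (BCMA) and Tnfrsf13b (TACI) were not called, at 0.09 and -0.05.

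Of the clock genes, 3 of 11 with E-box or D-box control and 2 of 5 under ROR control were called, where 9.45% of all genes were called. In the first list Per1 rose, Per3 fell by 0.24 ± 0.06, and Nr1d2 fell without being separated. In the second, Clock rose by 0.33 ± 0.07 and Nfil3 fell. Nfil3, which encodes a repressor at D-boxes, had 20.9, 16.4, 12.8, 18.6 and 20.1 CPM at ZT0 and 20.3, 19.7, 19.7, 16.6 and 26.96 CPM at ZT12. It had 25.7, 25.9, 33.7, 33.6 and 34.5 CPM at ZT6 and 45.6, 37.4, 31.9, 42.6 and 41.3 CPM at ZT18. The 1 transition library inside the mid-phase range was replicate 5 of ZT12. Its difference of -0.87 ± 0.11 was the most negative of the called and separated genes with at least 5 CPM, antibody segments left out (edgeR adjusted p = 2.72e-05). Arntl, which encodes BMAL1, was not called at 0.00 ± 0.09, with 8.78 and 5.48 CPM at ZT0 and ZT12 against 6.06 and 7.95 CPM at ZT6 and ZT18, an order in which the mid-phases lie between the transitions. Per3 lost the call in 8 of 20 fits without 1 library (adjusted p 0.00239 to 0.017) and with library totals (0.0193), and Nr1d2 in 15 of 20 (up to 0.0236). Per3 and Nr1d2 also missed the threshold with ZT12 as the only transition (edgeR adjusted p = 0.228 and 0.844).

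Among 50 splicing factors and CLK kinases, 8 were called lower and 1 higher, where 5.11% and 4.34% of all genes were. The counts were 3 and 0 with library totals and 4 and 2 with the GC offset, near those shares. The separated lower genes were Luc7l3, Srsf2, Hnrnpdl, Clk4, Srsf3 and Hnrnpd, at -0.28, -0.25, -0.19, -0.19, -0.15 and -0.13 on the log2 scale. Srsf7 rose by 0.19 ± 0.05. With library totals Clk4, Srsf3, Hnrnpd and Srsf7 lost their calls (edgeR adjusted p = 0.0208, 0.0256, 0.0185 and 0.131), and so they did in 11, 6, 12 and 13 of 20 fits without 1 library (up to 0.0163, 0.0152, 0.0186 and 0.0223). With ZT0 as the only transition Luc7l3, Srsf2, Hnrnpdl, Clk4, Srsf3, Hnrnpd and Srsf7 missed the threshold. Their edgeR adjusted p there were 0.0296, 0.0627, 0.161, 0.0229, 0.403, 0.0428 and 0.0141. Clk4, Hnrnpd and Srsf7 also missed it with ZT12 as the only transition (0.0368, 0.0282 and 0.0831). Splicing factors of the SR family bind exonic sequence and CLK kinases phosphorylate them.

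**Figure D4:**
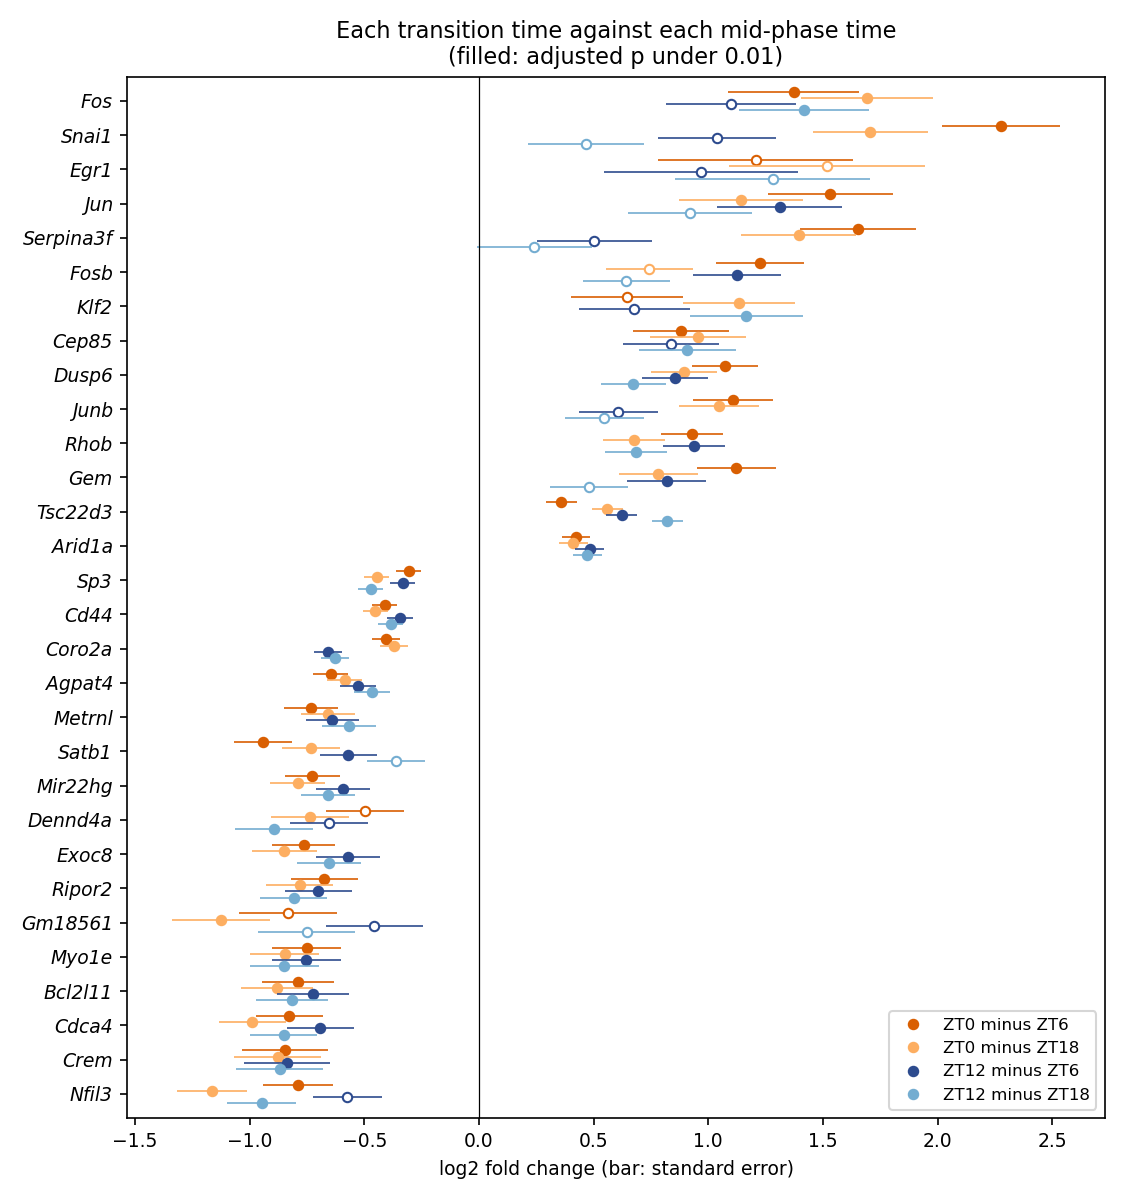
Log2 differences of each transition time against each mid-phase time (ZT0 - ZT6, ZT0 - ZT18, ZT12 - ZT6 and ZT12 - ZT18, with SE) for the 30 genes with the highest, the lowest or the best supported differences. All 30 were picked from separated genes, so their 4 differences have 1 sign by the rule of selection. In 16 all 4 are called, and in Egr1 none is called.

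The transitions were unequal in some of the genes that separated from the mid-phases. Snai1, which encodes a zinc finger repressor, had 9.50, 17.2, 13.6, 17.5 and 9.39 CPM at ZT0 and 3.82, 4.63, 6.50, 6.86 and 6.52 CPM at ZT12. It had 2.16, 3.52, 1.46, 3.85 and 2.72 CPM at ZT6 and 3.13, 4.84, 3.86, 4.59 and 4.19 CPM at ZT18. ZT0 stood above all other times, while ZT12 overlapped both mid-phases. The difference between transitions and mid-phases was 1.37 ± 0.18, but ZT12 was lower than ZT0 by a log2 value of -1.24 (edgeR adjusted p = 0.00356), and its difference from ZT18 was 0.47 (0.236). Serpina3f behaved likewise, with 45.5 ± 16.0 and 20.4 ± 2.90 CPM at ZT0 and ZT12, against 14.5 ± 2.94 and 17.3 ± 5.65 CPM at ZT6 and ZT18 (SD, n = 5 each). In the chromatin remodelling gene Arid1a, ZT12 and ZT0 differed by 0.06 on the log2 scale (edgeR adjusted p = 0.649). It averaged 105.2 ± 8.05 and 109.7 ± 5.84 CPM at ZT0 and ZT12, against 78.5 ± 7.90 and 79.1 ± 5.11 CPM at ZT6 and ZT18 (SD, n = 5 each). Its rise was 0.45 ± 0.04 with no overlap.

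The called genes differed from the rest in base composition and length. The median GC content of the transcripts was 52.3% in the 518 higher genes, 47.3% in the 657 lower genes and 50% in the other 12792 genes. From the tenth of genes with the lowest GC to the tenth with the highest, the share that rose went up, at 2.16% and 5.9%, and the share that fell went down, at 7.62% and 2.44%. The median transcript length was 4230 bases in the higher genes, 3788 in the lower genes and 2682 in the others. The GC trend of single libraries, as log2 level per 10% of GC, was -0.03 to 0.09 at the transitions and -0.07 to 0.02 at the mid-phases, and differed in a permutation test added after its values were seen (two-sided, p = 0.0059, adjusted over 6 properties 0.0354). With an offset for GC in each library, 1204 genes were called in place of 1320, and of the genes named above Egr1, Zfp36, Nfkbiz, Il10ra, Tap2, H2-Aa, Atf6b, Bhlha15, Rps19, Rplp2, C1qc, Nr1d2, Clk4, Srsf3 and Hnrnpd lost their calls.

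Heat shock genes, which also respond to warming of cells, varied widely, and their sums overlapped between the sides. The sum of 22 genes was 1443 to 7286 CPM (median 2276) at the transitions and 963 to 5325 CPM (median 1886) at the mid-phases. Of these genes 1, Chordc1, was called, at 0.28 ± 0.05, a share near the 4.34% of all genes called higher. Hspa1b averaged 54.8 ± 49.7 and 401 ± 430.5 CPM at ZT0 and ZT12, against 55.3 ± 63.3 and 218 ± 335 CPM at ZT6 and ZT18 (SD, n = 5 each), spreads as wide as the means. Epithelial markers, 27 in all, summed to 59.1 to 112.5 CPM at the transitions and 63.1 to 168.6 CPM at the mid-phases. Without the 3 libraries that held the most of them (replicate 2 of ZT12, replicate 4 of ZT6 and replicate 3 of ZT18) 877 genes were called and 807 were also separated.

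**Figure D5:**
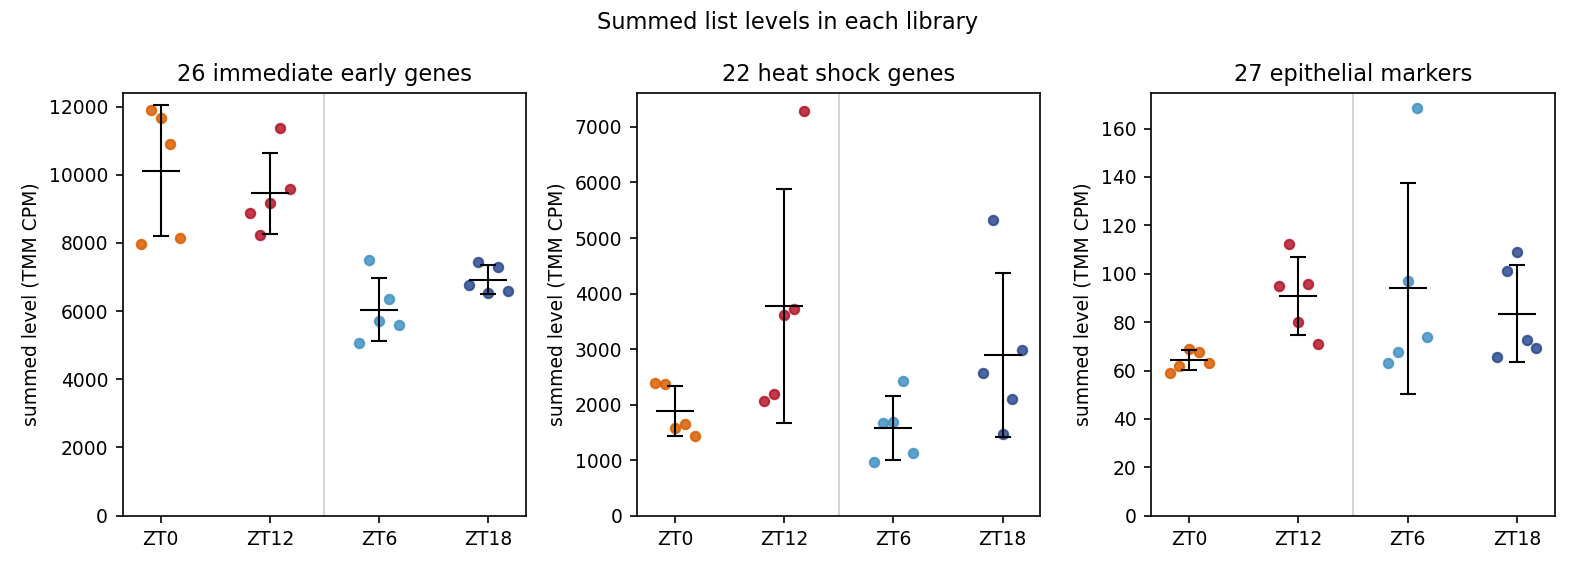
Summed TMM-scaled CPM (vertical axes) of 26 immediate early genes, 22 heat shock genes and 27 epithelial markers in each library, with ZT0 and ZT12 left of ZT6 and ZT18 and bars for the mean ± SD of 5. The immediate early sum of every transition library, 7978 CPM or more, exceeds that of every mid-phase library, 7500 CPM or less, and the other sums overlap.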

How the data were processed

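RNA of CD138+ IgA+ cells sorted from the small intestinal lamina propria of 20 mice was sequenced by the authors (poly-T selection, NEB Next Ultra kit, paired reads). They deposited raw counts of 47069 Ensembl genes and, for 18886 genes, FPKM values (fragments scaled by transcript length and library size). The FPKM values deposited by the authors served for 38 gene symbols. The aligner, genome build, annotation and the use of strand were not stated in the sources used here, so overlapping and antisense genes cannot be told apart. Of the IDs, 46488 took symbol and position from GENCODE M21 (GRCm38) and 543 had no symbol.

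Counts were tested with edgeR 4.0.16 in R 4.3.3 (glmQLFit, robust, glmQLFTest, two-sided), with a mean for each of the 4 times, TMM factors and filterByExpr, which kept 13967 genes. The contrast was the average of ZT0 and ZT12 minus the average of ZT6 and ZT18. The adjusted p threshold of 0.01 follows the study's methods, which used DESeq2. SE was taken from the F statistic of the contrast. Libraries were 1 animal each, and the lowest chi-square per degree of freedom between libraries of 1 time was 56.5, so none was a duplicate. Counts of the 13967 genes were also simulated with the same contrast. The changed genes were drawn from those averaging 5 CPM or more, antibody segments left out. Of those changed 1.3-, 1.5- and 2-fold, 71.6%, 95.5% and 100% were called, with 2 of 13767 unchanged genes. Each gene was simulated independently, while real genes can move together, so this gives no rate of false calls for these data.

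Named genes were the 12 highest and 12 lowest called and separated genes averaging 5 CPM or more, the 6 with the smallest p, up to 3 called and separated genes per list, plasma cell markers and called clock genes, 108 in all. Antibody segments were left out. Other list members, and Golga4, Pfkl, Ryr1, C1qa, C1qc, Prg2 and Pecam1, were named after their values were seen. The comparison, the members and the lists were chosen with earlier results of these data known. Alternatives were DESeq2 1.42.0 size factors and test, limma 3.58.1 voom, library totals, TMM without immunoglobulin genes, other filters and thresholds, 2 groups of 10, the replicate block, covariates, leaving out each library, and either transition alone. The GC offset, the immediate early covariate and leaving out the 3 libraries with the most epithelial counts were chosen after seeing the data, as were the tests of mitochondrial share and GC trend. Permutation tests used scipy 1.17.1 and figures matplotlib 3.10.9.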

Additional observations from a re-analysis of the deposited data

Results flagged for a closer look

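In 120 groups of 5 libraries of the genes with the highest, lowest or best supported differences, 7 held a library far from its other 4, and chance sets apart about 1 in 20 groups. Replicate 2 of ZT6 had 446 CPM of Fos. Replicate 4 of ZT12 had 859.1 CPM of Fos and 181 CPM of Egr1. Replicate 5 of ZT0 had 53.6 CPM of Cep85, below the other transition libraries. Replicate 5 of ZT18 had 133.2 CPM of Junb, the lowest at that time, replicate 1 of ZT6 had 48.08 CPM of Satb1, and replicate 3 of ZT18 had 144.7 CPM of Crem.

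Both transitions differed from each other in 3 of these genes. The log2 difference of ZT12 minus ZT0 was -1.239 for Snai1 (edgeR adjusted p = 0.00356), -1.152 for Serpina3f (0.00779) and -0.255 for Coro2a (0.00616). In Coro2a both transition times lay below both mid-phase times all the same.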

How the results depend on the processing

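The counts of called genes and of called and separated genes stayed within 1.5 times of 1320 and 1175 with DESeq2 size factors, the DESeq2 test, limma voom, either filter, TMM without immunoglobulin genes, the GC offset, and the epithelial and heat shock covariates. Library totals gave 810 and 737, 2 groups of 10 gave 660 and 660, a threshold of 0.05 gave 2259 and 1870, and the immediate early covariate 1 and 1. Without the 3 libraries richest in epithelial markers, 877 were called. Leaving out 1 library gave 1051 to 1305 called and 924 to 1151 separated genes. With the immediate early covariate all 103 named genes that had been called missed the threshold. Of these, 98 kept their sign and 5 changed it: Egr1 stood at -0.396, Klf2 at -0.054, Dusp1 at -0.021, Tfeb at -0.049 and Tram2 at 0.018. Of 103 named genes called, 84 kept the call in all 20 fits without 1 library.

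The replicate numbers did not pair the libraries. Deviations of same-numbered libraries correlated at -0.171 to 0.226 over 30 pairs, and 4 of 20 libraries correlated best with their own number. The replicate block gave 1258 called and 1120 separated genes.

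With 5 animals a time, changes near 1.3-fold were missed in part. Handling, feeding and clock hour were not recorded in the labels.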

Other observations

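ER translocation and glycosylation genes had 5 called higher and 1 lower of 48, and ER to Golgi traffic genes 4 and 3 of 49, among them the COPII coat gene Sec24a, which fell by 0.33 ± 0.04 with no overlap between the sides. ER chaperones had 4 higher and 1 lower of 30, and ER-associated degradation genes 2 and 1 of 25. Proteasome genes had 4 higher and 1 lower of 40, aminoacyl-tRNA synthetases 4 higher and 0 lower of 23, and nuclear oxidative phosphorylation genes 3 higher and 0 lower of 77. None of the 13 mitochondrially encoded transcripts was called by edgeR or DESeq2, with a median of -0.14 and 4 at an unadjusted p under 0.05. With library totals, 0 oxidative phosphorylation genes were called. Against a background of 4.34% called higher and 5.11% called lower, nothing is read from these counts.

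On the lower side stood autophagy genes, with 1 higher and 4 lower of 36 (1 and 0 with library totals), ribosome biogenesis genes with 0 and 3 of 42 (0 with library totals), hypoxia-induced genes with 0 and 3 of 18, and fatty acid synthesis genes with 0 and 2 of 18. Of all genes tested 4.34% were called higher and 5.11% lower, and nothing is read from these counts either. In the fatty acid list, Acsl3, an acyl-CoA synthetase, averaged 13.2 ± 1.82 and 12.5 ± 0.79 CPM at ZT0 and ZT12, against 14.2 ± 2.23 and 23.6 ± 0.99 CPM at ZT6 and ZT18 (SD, n = 5 each). Its fall of 0.52 ± 0.07 thus came with ZT18 alone standing high. None of 19 NRF2 antioxidant genes was called by edgeR or DESeq2 (3 at an unadjusted p under 0.05), while 2 of 26 interferon-stimulated genes were called higher. These, Isg15 and Ifi27, lost the call in 13 and 11 of 20 fits without 1 library (edgeR adjusted p up to 0.0204 and 0.0142). Isg15 also lost it with library totals (0.0529), and 0 of the 26 were called with the heat shock covariate.

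Cep85, which encodes a centrosomal protein, rose by 0.90 ± 0.15, with 53.6 to 135.8 CPM at the transitions and 47.4 to 76.5 CPM at the mid-phases. Of the called and separated genes 3 were antibody segments, which differ between animals by clone. Mir22hg, the host transcript of a microRNA, fell by 0.69 ± 0.08, with 7.43 to 14.6 CPM at the transitions and 16.0 to 19.8 CPM at the mid-phases.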
